A study of Peromyscus polionotus with 11 samples.

Results

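The genes described here encode the voltage-gated calcium channels, the voltage-gated sodium channels and the HCN channels. They were measured in 2 forebrain nuclei of the oldfield mouse, Peromyscus polionotus, under long and short days. Members were taken by a rule on the gene symbol, with no filter on their values, although the choice was made with earlier results of these data known. The rule took every probe set with a single symbol that begins with Cacna, Cacnb or Cacng, or that is Scn or Hcn followed by a number. The rule gave 49 probe sets for 34 genes, out of 20380 probe sets for 12393 genes with a single symbol. Of the 34 genes, 21 had 1 probe set and 13 had several (28 probe sets together). Probe sets of the same gene share a transcript and are not independent.

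Total RNA from micropunches was hybridised to 11 Affymetrix arrays, whose probe sets were designed for the house mouse. Punches of the medial preoptic area came from mice in long days (3 samples) and in short days (3 samples). Punches of the bed nucleus of the stria terminalis came from mice in long days (3 samples) and in short days (2 samples). Day length is the only treatment in the labels used here, which give no hours of light, strain or genotype. The series' design calls the samples of a group independent, but how many mice a sample pools is not stated, so the p-values measure only the spread between these samples. Sample numbers run from 1 to 3 in long days and from 4 to 6 in short days. By its title the study asked whether day length alters gene expression in these nuclei.

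Voltage-gated channels open when the membrane potential shifts. Sodium channels carry the upstroke of the action potential through a pore-forming alpha subunit with beta subunits beside it. Calcium channels let calcium in at the terminal, in dendrites and at the soma, where it drives transmitter release, bursting and gene regulation. Their pore (Cacna1 genes) is brought to the membrane and tuned by a cytosolic beta subunit (Cacnb) and by an extracellular alpha2delta subunit (Cacna2d). The Cacng genes are named as calcium channel gamma subunits, but several encode TARPs, which carry AMPA receptors to the synapse. HCN channels open on hyperpolarisation, are gated by cyclic AMP and support rhythmic firing. Low-threshold calcium currents and HCN currents both help to set whether hypothalamic and bed nucleus neurons fire in bursts or tonically.

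Values are intensities on a linear scale, with a median of 19 on every array, and low intensities are rounded coarsely: at 19 a step of 1 unit is 0.07 on the log2 scale, and at 11 it is 0.13. Of the 49 channel probe sets, 30 had a mean above 19, and 18 (in 15 genes) were above it on all 11 arrays. A share of 50.4% of all probe sets had a mean above 19. A house mouse probe set can lose signal on oldfield mouse RNA, so levels of different probe sets were not ranked. The probe sets above the median on every array included Cacna2d1, Cacna2d2, Cacna2d3, Cacng2, Cacng8, Scn1a, Scn2a, Scn8a, Hcn2 and 1 of the 2 Cacna1a probe sets (1459996_at, 103 to 146). Probe sets that lay below it on all arrays numbered 11, among them both Cacna1d probe sets and Hcn3. For these a reading near the floor of the array and a weak signal cannot be told apart. The median residual standard deviation of the channel probe sets was 0.18 on the log2 scale, against 0.17 for all probe sets.

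**Figure D1:**
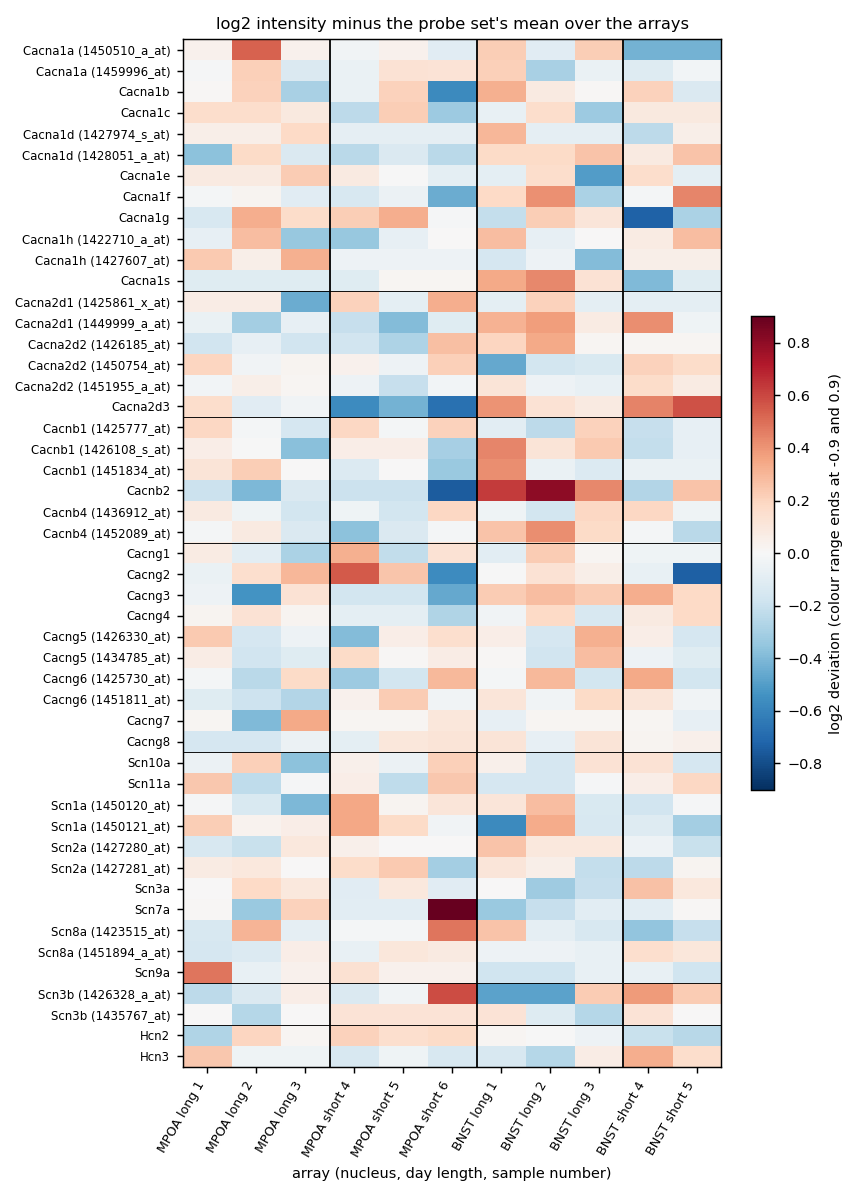
Each row is a channel probe set, grouped by role, and each column an array; colour gives the log2 intensity minus the mean of that probe set over the 11 arrays. Cacna2d3 is blue on all 3 short-day preoptic arrays and red on all 5 bed nucleus arrays, while most other rows vary from array to array within a group; the short-day preoptic array 6 holds the highest Scn7a value (28 against 11 to 16 elsewhere).

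The short-day preoptic array 6 stood apart from the rest. On the first principal component of all probe sets (23.2% of the variance) it lay at -31.2, whereas the other 10 arrays lay between -6.63 and 25.4. Markers of the tissues were read beside the channels, and a gene is said to pass where its limma p, adjusted over all 22626 probe sets tested, was below 0.05. Among 8 measured markers of striatal neurons, 5 passed as higher in the bed nucleus, against 0.464% of all probe sets (7 of 8 lay above 0). The summed intensity of the 8 was 2082 to 2930 in the long-day and 1637 to 2184 in the short-day preoptic samples. It was 3023 to 3660 and 3653 to 3841 in the long-day and short-day bed nucleus samples, most of it from Foxp1. Among 13 markers of hypothalamic and preoptic neurons, 5 passed as lower in the bed nucleus and 1 as higher (11 of 13 lay below 0). The share of all probe sets that passed in either direction was 1.03%. The sums over the 13 were 3235 to 4133 and 3526 to 4344 in the preoptic groups and 2494 to 2871 and 2214 to 2644 in the bed nucleus groups. Most of each sum came from Ndn, with means of 2851 and 3199 in the preoptic and 2140 and 1911 in the bed nucleus groups (long days first). Most preoptic markers were thus higher under the preoptic label, but the marker lists were chosen with earlier results of these data known, so they do not test the label. Esr1 and Calcr, like 7 of the 13 in all, had a mean at or below 19. General neuronal markers summed to 2328 to 2625 and 2374 to 2584 in the preoptic groups and to 2150 to 2466 and 2084 to 2206 in the bed nucleus groups, and none of the 10 passed. All 7 oligodendrocyte markers lay above 0 in the bed nucleus, with none passing (sums of 178 to 277 over the preoptic and 229 to 453 over the bed nucleus samples). Array 6 of the short-day preoptic group set the highest preoptic sum of the hypothalamic markers (4344) and the lowest of the oligodendrocyte markers (178). Its striatal sum was 1640, close to the lowest of 1637. None of the marker genes passed in a comparison of day lengths. In such tissue samples fewer cells of a type and less RNA per cell cannot be told apart.

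Between the nuclei, the alpha2delta subunit Cacna2d3 and the beta subunit Cacnb2 were higher in the bed nucleus, each by a factor of about 1.5. These were the only 2 of the 49 channel probe sets to pass (limma), 4.08% of them. Among all probe sets 1.03% passed in either direction and 0.464% passed as higher in the bed nucleus. An unadjusted p below the threshold was found for 10 channel probe sets (20.4%), against 11.9% of all. The median log2 difference of the channel probe sets was 0.01, against 0.00 for all, with 26 above and 23 below 0.

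Cacna2d3 (1419225_at), an alpha2delta subunit of the brain, read 96, 80 and 84 on the long-day preoptic arrays, and 58, 64 and 54 on the short-day ones. In the bed nucleus it read 114, 94 and 91 in long days and 117 and 128 in short days. The short-day preoptic samples were thus the lowest and the short-day bed nucleus samples the highest of all 11, and the long-day samples of the nuclei overlapped. The bed nucleus minus preoptic difference, averaged over day lengths, was 0.63 ± 0.10 on the log2 scale (SE, adjusted p = 0.00192, limma). Split by day length after the values were seen, with the spread taken from all arrays, it was 1.06 ± 0.15 in short days (adjusted p = 0.00346, limma), a 2.09-fold difference. With that spread Cacna2d3 was the only channel probe set to pass in short days (1 of 49, against 0.354% of all probe sets). On the short-day arrays alone it did not pass. With the shared spread the difference in long days was 0.20 and did not pass (adjusted p = 0.631, limma). The test of whether the day lengths differ did not pass either (adjusted p = 0.418, limma). The call for both day lengths together held in each fit that left out 1 array (0.58 to 0.67), the short-day preoptic array 6 included (0.60, adjusted p = 0.00415). The range of the striatal marker sums given above was also lowest in the short-day preoptic and highest in the short-day bed nucleus samples; their part in the Cacna2d3 result was not tested.

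Cacnb2 (1452476_at) encodes a beta subunit that sets the surface level and gating of the pore. It read 22, 19 and 23 on the long-day and 22, 22 and 15 on the short-day preoptic arrays. In the bed nucleus it read 39, 44 and 34 in long days and 21 and 30 in short days. All 3 long-day bed nucleus samples were above every preoptic sample, but the short-day bed nucleus array 4 (21) fell among them. The difference over both day lengths was 0.62 ± 0.13 (SE, adjusted p = 0.0181, limma). With 16 added to each intensity before the log2 step, which shrinks the differences of dim probe sets, it was 0.39 and still passed (adjusted p = 0.0329, limma). Split by day length after the values were seen, with the spread from all arrays and no offset, the difference was 0.87 in long days (adjusted p = 0.0401, limma). It was 0.37 in short days (adjusted p = 0.512, limma). With that spread Cacnb2 was the only channel probe set to pass in long days (1 of 49, against 0.128% of all probe sets). On the long-day arrays alone it did not pass. The test of whether the day lengths differ did not pass (adjusted p = 0.628, limma). The Cacnb2 call was lost when 1 of 4 arrays was left out: without the long-day preoptic array 2 (0.58, adjusted p = 0.0668), the long-day bed nucleus arrays 1 (0.62, adjusted p = 0.0539) and 2 (0.58, adjusted p = 0.0569), or the short-day bed nucleus array 5 (0.49, adjusted p = 0.156).

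The bed nucleus and preoptic samples did not overlap for 2 other channel probe sets, Cacna2d1 and Cacng3 (4.08% of the channel probe sets, against 1.47% of all probe sets in either direction). The gap was narrow: the highest preoptic and lowest bed nucleus readings were 82 and 83 for Cacna2d1 and 27 and 28 for Cacng3. Cacna2d1 (1449999_a_at), an alpha2delta subunit that binds gabapentin, read 82, 69 and 81 in long-day and 74, 65 and 79 in short-day preoptic samples. In the bed nucleus it read 106, 111 and 90 in long days and 114 and 83 in short days. The difference was 0.41 ± 0.11 and did not pass (adjusted p = 0.0765, limma). The other Cacna2d1 probe set, whose name ending (x_at) marks a possible match to other transcripts, stayed between 7 and 12 and differed by -0.06. Cacng3 (1450520_at), a TARP of forebrain AMPA receptors, read 24, 17 and 27, then 22, 22 and 18, on the long-day and short-day preoptic arrays. It read 29, 30 and 29, then 31 and 28, in the bed nucleus, a difference of 0.46 ± 0.11 (adjusted p = 0.0606, limma). Cacng3 passed without the long-day preoptic array 3 (0.53, adjusted p = 0.0376) and with dim probe sets left out (adjusted p = 0.0447), which tests fewer probe sets. With the offset of 16 its difference was 0.28 (adjusted p = 0.0738).

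**Figure D2:**
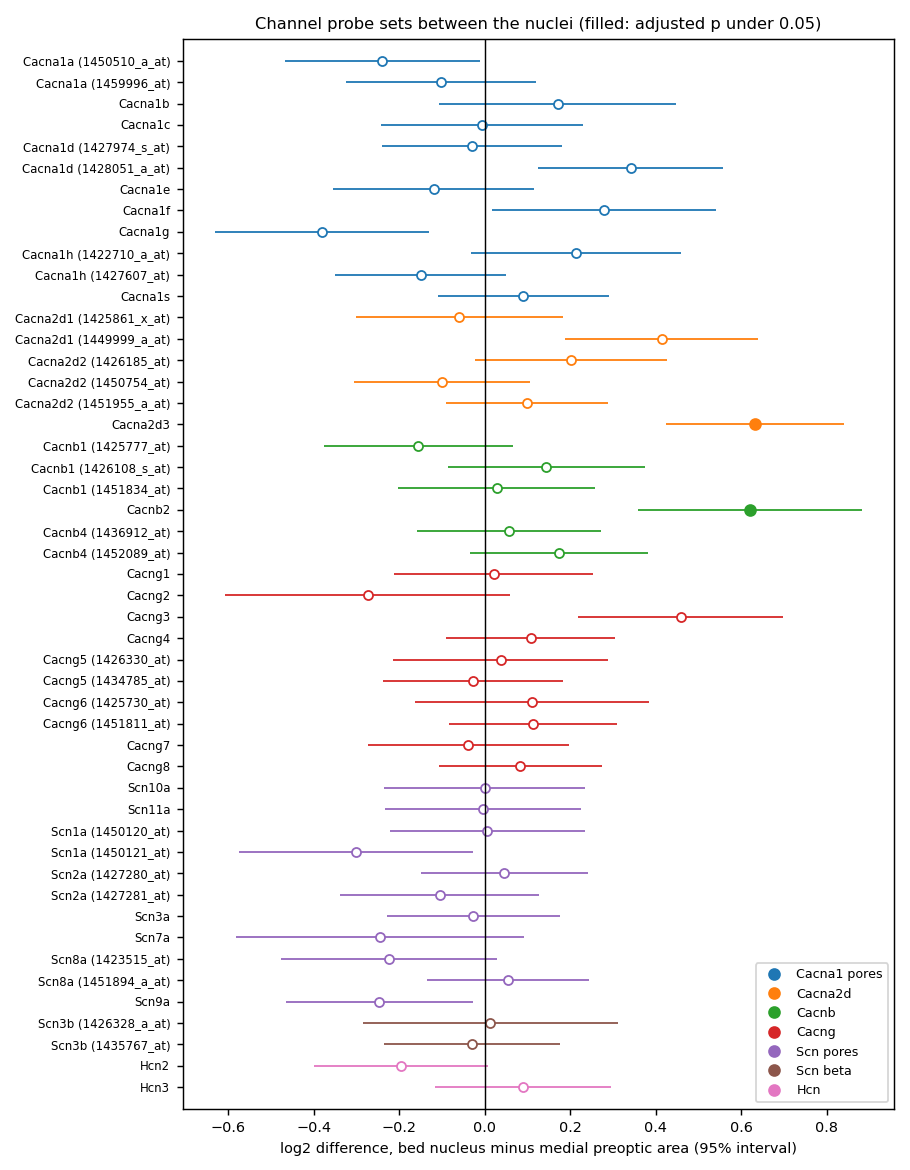
Points are log2 differences, bed nucleus minus medial preoptic area, averaged over day lengths, for the 49 channel probe sets in order of role; lines are 95% intervals and filled points passed. Cacna2d3 (0.63) and Cacnb2 (0.62) lie furthest to the right, followed by Cacng3 (0.46) and Cacna2d1 (0.41); the sodium channel pore probe sets lie between -0.30 and 0.05.

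The remaining auxiliary subunits showed smaller differences between the nuclei. Cacna2d2, a further alpha2delta subunit, had probe sets at -0.10, 0.10 and 0.20. Cacnb1 had -0.16, 0.03 and 0.14, and Cacnb4 0.06 and 0.17, so the beta subunits other than Cacnb2 stayed within 0.20 of 0. Among the gamma subunits and TARPs, Cacng2 (stargazin) was at -0.27 ± 0.16, with a 95% interval of -0.61 to 0.06. Cacng4, Cacng5, Cacng6, Cacng7 and Cacng8 and the muscle gamma subunit Cacng1 lay between -0.04 and 0.11.

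For the calcium channel pores no probe set passed between the nuclei, and 5 of 12 were higher in the bed nucleus and 7 lower. The T-type pore Cacna1g, which opens at low threshold and supports bursting, read 21, 29 and 26 and 27, 29 and 23 in the long-day and short-day preoptic samples. In the bed nucleus it read 20, 27 and 25 in long days and 14 and 19 in short days (difference -0.38 ± 0.12, adjusted p = 0.157, limma). The groups overlapped in long days, whereas both short-day bed nucleus samples were lower than all 6 preoptic samples. The probe sets of the L-type pore Cacna1d gave 0.34 (adjusted p = 0.140, limma) and -0.03. The latter carries an ending (s_at) used for probe sets that can bind transcripts of more than a single gene. The P/Q-type pore Cacna1a, which drives release at many central synapses, gave -0.10 for its bright probe set and -0.24 for its dim one. The retinal L-type pore Cacna1f was at 0.28, the N-type pore Cacna1b at 0.17, the R-type pore Cacna1e at -0.12 and the L-type pore Cacna1c at -0.01. The T-type pore Cacna1h had probe sets at 0.21 and -0.15, and Cacna1s, the L-type pore of skeletal muscle, was at 0.09.

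The sodium channel pores differed little between the nuclei: 3 of 11 probe sets were higher in the bed nucleus and 8 lower, none passed, and the median was -0.03. Scn1a, the pore of fast-spiking inhibitory neurons, had a probe set that read 35 to 59 over all arrays (0.01 ± 0.11) and another that read 83 to 157 (-0.30 ± 0.13, adjusted p = 0.360, limma). Scn2a gave 0.05 and -0.11. Scn8a, the main pore of the axon initial segment in adult neurons, gave 0.05 and -0.22. For the brighter Scn8a probe set, which read 52 to 64 on all arrays, the 95% interval was -0.13 to 0.24. Scn3a, an early-expressed neuronal pore, was at -0.03. Scn9a was at -0.25 (adjusted p = 0.340, limma), and the peripheral sensory neuron pores Scn10a and Scn11a were both at -0.00. These 3 had mean intensities of 21.3 or less, as did the sodium sensor Scn7a (-0.24). The beta subunit Scn3b gave 0.01 and -0.03. Hcn2 read 58, 80 and 71 and 81, 78 and 79 in the preoptic samples and 71, 70 and 68 and 61 and 59 in the bed nucleus samples, with long days first. Its difference of -0.20 did not pass (adjusted p = 0.445, limma), and Hcn3, which read 12 to 18, was at 0.09. Of the 13 genes with several probe sets, 3 had all of them on the same side of 0 between the nuclei, against 5 for day length in the preoptic area and 9 for day length in the bed nucleus.

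**Figure D3:**
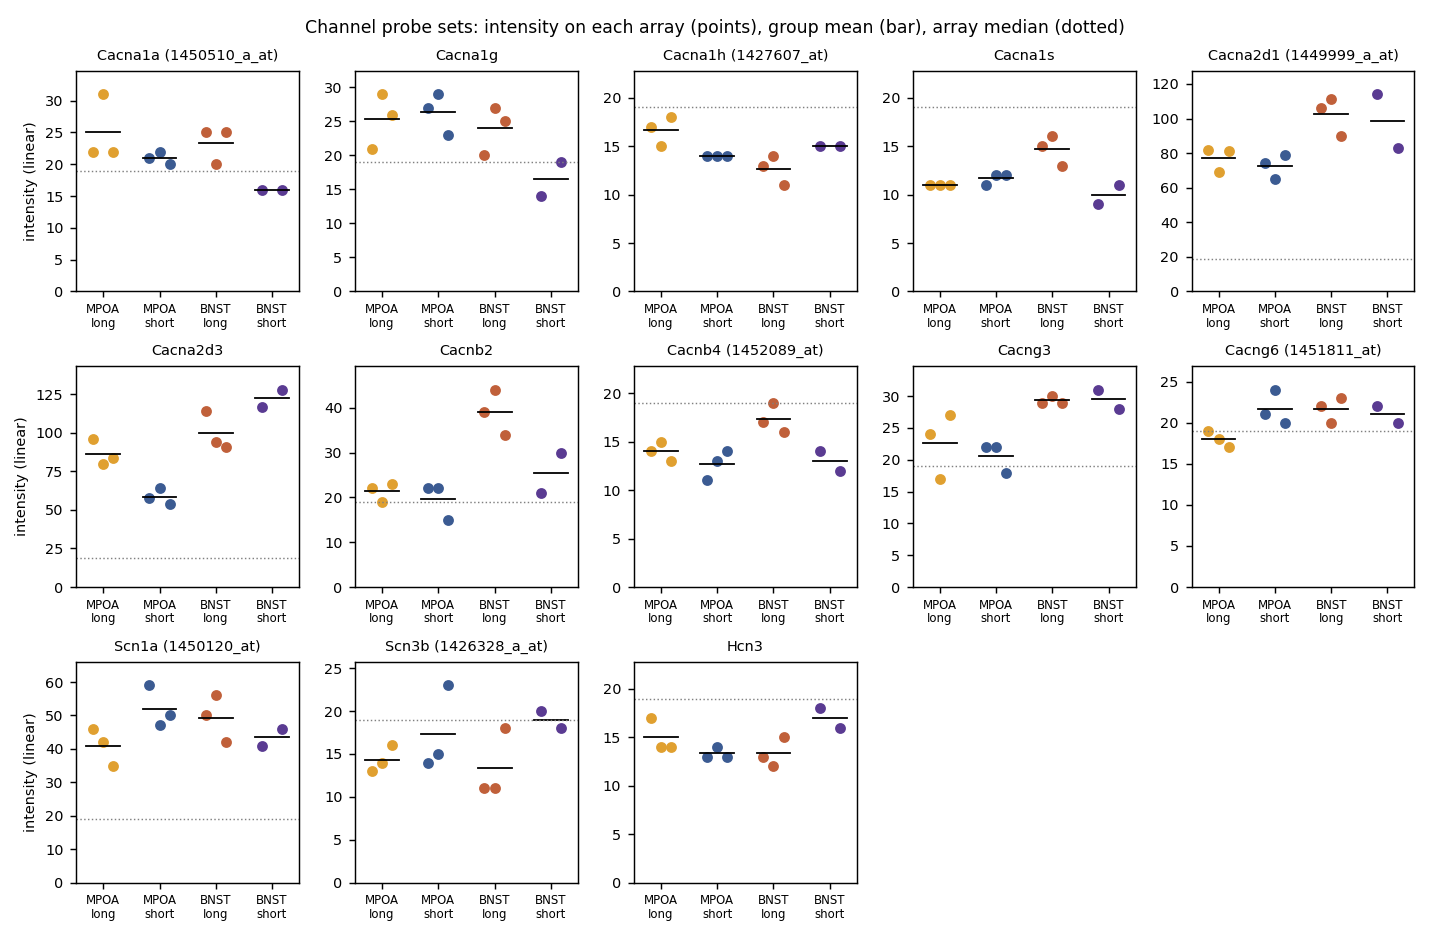
Points are intensities on the linear scale for the 13 channel probe sets named by the rule for named genes; the horizontal bar is the group mean and the dotted line the array median of 19 (MPOA, medial preoptic area; BNST, bed nucleus). For Cacna2d3 the short-day preoptic points (54 to 64) lie below every other group, and for Cacnb2 the long-day bed nucleus points (34 to 44) lie above every other point; Cacna1h (1427607_at), Cacna1s and Hcn3 stay below the dotted line throughout.

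No channel probe set passed between day lengths in the medial preoptic area with limma (0 of 49, and 0% of all 22626). An unadjusted p below the threshold was found for 3 (6.12%), against 3.5% of all probe sets, and long-day and short-day samples did not overlap for 7 (14.3%), against 5.19% of all. The median log2 difference was 0.01, against 0.00 for all, with 25 above and 24 below 0. Of these, Cacna2d3 was the furthest from 0. The values above gave means of 86.7 ± 8.33 (SD, n = 3) in long and 58.7 ± 5.03 (n = 3) in short days, without overlap. The difference was -0.56 ± 0.13 (SE, adjusted p = 1, limma), and -0.50 without the short-day array 6. All 8 striatal markers lay below 0 and 11 of the 13 hypothalamic markers above 0 in this comparison, with none passing; their part in the Cacna2d3 value was not tested.

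The other channel probe sets with the smallest p in the preoptic area were small differences. A probe set of Scn1a read 46, 42 and 35 in long days and 59, 47 and 50 in short days (0.35 ± 0.15, adjusted p = 1, limma). The groups were close but did not overlap. The other Scn1a probe set read 144, 126 and 129 against 157, 139 and 121 and gave 0.06. A Cacng6 probe set was at 0.26, while the other one was at -0.04, and a Cacna1h probe set read 17, 15 and 18 against 14, 14 and 14 (-0.25). With the offset of 16 these were 0.15 for the first Cacng6 probe set and -0.12 for Cacna1h. The calcium channel pores had 3 probe sets above and 9 below 0 (median -0.13), and the sodium channel pores 8 above and 3 below (median 0.10). For the channel probe sets the 95% interval had a median half-width of 0.30. An estimate of about that size was thus needed for an interval to exclude 0 before adjustment. A true change of that size in a single gene could still be missed.

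In the bed nucleus too no channel probe set passed between day lengths with limma (0 of 49, against 0.0442% of all probe sets). The share with an unadjusted p below the threshold was 20.4% (10 probe sets) against 12.7% of all, and samples did not overlap between day lengths for 17 (34.7%) against 23.7%. The channel probe sets had a median log2 difference of -0.03 and all probe sets -0.01, with 20 above and 29 below 0.

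The shares with an unadjusted p below the threshold, 20.4% of the channel probe sets and 12.7% of all, count both directions. Beta subunits made up 3 of the 6 channel probe sets that were lower in the short-day bed nucleus at that threshold. Cacnb2 was at -0.63 ± 0.19 (adjusted p = 0.167, limma), with long-day readings of 39, 44 and 34 and short-day readings of 21 and 30. It was at -0.37 without the short-day array 4 and at -0.89 without the short-day array 5, so these arrays set its size. Cacnb4 read 17, 19 and 16 against 14 and 12 for one probe set (-0.42, adjusted p = 0.247, limma), while the other gave 0.08. Neither Cacnb4 probe set rose above the array median of 19. Cacnb1 gave -0.41 for a probe set ending in s_at, and -0.14 and -0.10 for the others. Over the 6 beta subunit probe sets, which cover 3 genes, 5 were below 0, with a median of -0.27. General neuronal markers lay below 0 in 7 of 10, with a median of -0.18 and none passing; their part in these values was not tested.

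The other 3 lower probe sets were pores. Cacna1s had the smallest p of all members here (-0.55 ± 0.14, adjusted p = 0.117, limma). It read 15, 16 and 13 in long days and 9 and 11 in short days, all below the array median. The 6 striated muscle markers, of which 3 had a mean above 19, had 2 higher and 4 lower, with none passing. Cacna1g read 20, 27 and 25 against 14 and 19 (-0.55 ± 0.18, adjusted p = 0.203, limma), and -0.33 without the short-day array 4. The dim Cacna1a probe set read 25, 20 and 25 against 16 and 16 (-0.54, adjusted p = 0.176, limma). The bright Cacna1a probe set read 146, 103 and 121 against 116 and 124 and gave -0.03, so the 2 probe sets of this pore did not move alike. With the offset of 16 the values of these dim probe sets were smaller: -0.24 for Cacna1s, -0.30 for Cacna1g and -0.30 for Cacna1a, against -0.41 for Cacnb2.

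Higher in the short-day bed nucleus at an unadjusted p below the threshold were Cacna2d2, Scn3a, Scn3b and Hcn3. A Cacna2d2 probe set read 75, 92 and 94 in long days and 119 and 116 in short days (0.44 ± 0.15, adjusted p = 0.217, limma). The other Cacna2d2 probe sets gave 0.12 and -0.16. Scn3b (1426328_a_at) had 11, 11 and 18 against 20 and 18 (0.55), with 18 found in both groups. The other Scn3b probe set gave 0.15. Scn3a read 15, 12 and 13 against 18 and 16 (0.35). Hcn3 read 13, 12 and 15 against 18 and 16 (0.35). Both genes stayed below the array median. Cacng2 read 324, 356 and 337 in long days and 310 and 195 in short days (-0.46 ± 0.24, adjusted p = 0.433, limma), with the short-day array 5 far below the others. Hcn2 read 71, 70 and 68 against 61 and 59 (-0.22, adjusted p = 0.566, limma). Its groups did not overlap. Of 6 markers of ependyma and choroid plexus, 5 lay below 0 in this comparison (sums of 164 to 195 in long and 144 to 145 in short days), and none passed; their part in these values was not tested.

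**Figure D4:**
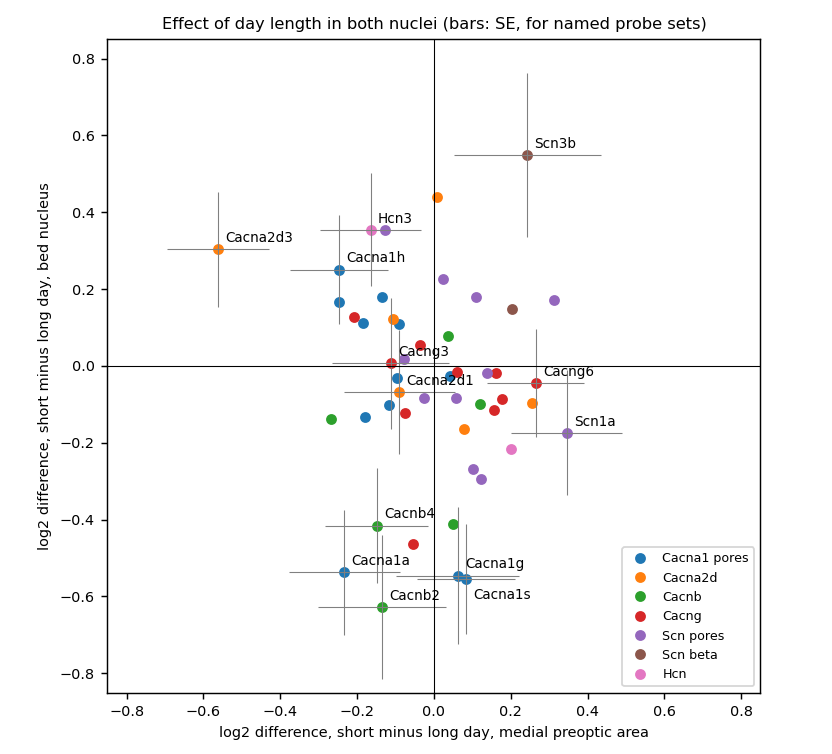
Each point is a channel probe set, with the log2 difference between short and long days in the medial preoptic area on the horizontal axis and in the bed nucleus on the vertical axis; grey bars are SE for the named probe sets. Cacna2d3 lies alone at the left (-0.56) with a positive value in the bed nucleus (0.30), and Cacnb2, Cacna1s, Cacna1g and Cacna1a lie at the bottom (-0.63 to -0.54).

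Averaged over both nuclei no channel probe set passed with limma (0 of 49, against 0.0133% of all), with 6 at an unadjusted p below the threshold (12.2%, against 9.02% of all). The smallest p belonged to the dim Cacna1a probe set (-0.38 ± 0.11, adjusted p = 0.369, limma). Cacnb2 was at -0.38. A Cacnb4 probe set (1452089_at) was at -0.28, while the other was at 0.06. The Scn3b probe sets were at 0.40 (1426328_a_at) and 0.18. The 0.40 for Scn3b rests in part on the short-day preoptic array 6, which read 23 where arrays 4 and 5 read 14 and 15. That value was 0.29 without array 6. With the offset of 16 the first value given for each gene became -0.22 for Cacna1a, -0.24 for Cacnb2, -0.13 for Cacnb4 and 0.20 for Scn3b.

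The test of whether day length acted differently in the nuclei also gave 0 of 49 channel probe sets with limma, as it did 0% of all probe sets. Unadjusted, 9 channel probe sets (18.4%) had a p below the threshold, against 8.34% of all. The median size of this difference, sign ignored, was 0.27 for the channel probe sets and 0.17 for all. Samples of the day lengths did not overlap in either nucleus, in opposite directions, for 2 of the 49 (4.08%), against 0.636% of all probe sets. These were Cacna2d3 and a Cacna1h probe set. For Cacna2d3 the preoptic effect of short days, subtracted from the bed nucleus effect, left 0.87 ± 0.20, with a 95% interval of 0.45 to 1.28 (adjusted p = 0.418, limma). The next by p were Cacna1s (-0.64, adjusted p = 0.450, limma), Hcn3 (0.52) and the Cacna1h probe set (0.50), each with an adjusted p of 0.450 or more. With the offset of 16 these were -0.27, 0.25 and 0.24, and Cacna2d3 was at 0.72. In the same comparison all 8 striatal markers lay above 0 (median 0.41, against -0.03 over all genes) and all 6 markers of ependyma and choroid plexus below 0 (median -0.40), with none passing; their part in these values was not tested. Cacna1g was at -0.61 and Hcn2 at -0.42. Cacnb2 was at -0.49 ± 0.25, with a 95% interval of -1.02 to 0.03.

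Genes that act with the channels were read from lists of partners, chosen with earlier results of these data known. Only the brightest probe set of each gene was read. Of 11 measured sodium channel partners, among them the intracellular fibroblast growth factors Fgf12, Fgf13 and Fgf14 and the scaffold Ank3, none passed in any of the 5 comparisons. In the bed nucleus 9 of the 11 were below 0 in short days, with a median of -0.13 against -0.03 over all genes. The general neuronal markers lay below 0 in 7 of 10 there, with a median of -0.18; their part in the partners' values was not tested. Of 13 calcium channel partners 2 passed, both lower in the bed nucleus than in the preoptic area, a comparison in which 1.03% of all probe sets passed. Cbarp, a protein that restrains calcium channels by binding the beta subunit, had means of 1075 ± 389 (SD, n = 3) and 1058 ± 340 (n = 3) in the preoptic groups. It had 609 ± 140 (n = 3) and 574 ± 88.4 (n = 2) in the bed nucleus groups (-0.82 ± 0.17 SE, adjusted p = 0.0211, limma). Stx1a, a syntaxin of the release machinery that binds presynaptic calcium channels, was at -0.93 ± 0.16 (adjusted p = 0.00514, limma). Both probe sets end in x_at, so they too may bind other transcripts.

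Of 16 calcium-dependent kinases and other calcium targets, each read from its brightest probe set, 3 passed between the nuclei, against 1.03% of all probe sets. The probe sets read for 2 calcineurin catalytic subunits moved in opposite directions between the nuclei. Ppp3ca was higher in the bed nucleus (0.73, adjusted p = 0.0484, limma) and Ppp3cb lower (-1.17, adjusted p = 2.1e-04, limma). Ppp3ca varied widely within groups. Its means were 66.7 ± 21.9 (SD, n = 3) and 51.3 ± 11.2 (n = 3) in the preoptic groups, long days first. In the bed nucleus groups they were 99.3 ± 37.8 (n = 3) and 94.5 ± 17.7 (n = 2). The kinase Camk2g was lower (-0.75 ± 0.11, adjusted p = 9.8e-04, limma). The HCN partners numbered 4, all above 0 in the bed nucleus with none passing. Among them, Pex5l, an auxiliary subunit of HCN channels, was at 0.37 (adjusted p = 0.120, limma). No partner gene passed in a comparison of day lengths.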

How the data were processed

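Values were the authors' deposited probe set intensities on a linear scale from 11 arrays. RMA version 3.4 is the tool named per the submitters' processing notes. For its settings, the sources used here say nothing. The whole numbers show rounding, and the shared median shows normalization between arrays. The table held 22690 probe sets. After 64 controls were set aside, 22626 were tested. Names came from the platform annotation, and only probe sets with 1 symbol were named (691 had several, 1555 none).

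On log2 intensities with no pseudocount (no value was 0), limma 3.58.1 in R 4.3.3 (lmFit, eBayes) fitted 4 group means to all 11 arrays. There were 7 residual and 12.9 prior degrees of freedom and 5 two-sided comparisons, with Benjamini-Hochberg adjustment over all probe sets and a threshold of 0.05. The procedure was tested on simulated data. Alternatives included quantile normalization, an offset of 16 before log2, dim probe sets left out, array weights, a replicate block and each array left out in turn. Replicate arrays of a group shared 10.4% to 14.4% identical values. Named were members that passed, the 4 with the smallest p in each comparison, and those whose nuclei do not overlap; further members are described by role. Lists used the brightest probe set of each gene. Members and lists were chosen with earlier results of these data known.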

Additional observations from a re-analysis of the deposited data

Results flagged for a closer look

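For 2 channel probe sets short days went with lower readings in every medial preoptic sample and higher readings in every bed nucleus sample than any long-day sample of the same nucleus. For Cacna2d3 the preoptic effect of short days, subtracted from the bed nucleus effect, left 0.87 ± 0.20 on the log2 scale (unadjusted p = 3.2e-04, adjusted p = 0.418, limma). For a Cacna1h probe set (1427607_at) this difference was 0.50 ± 0.19 (unadjusted p = 0.0173, adjusted p = 0.527, limma). It read 17, 15 and 18 against 14, 14 and 14 in the preoptic area, and 13, 14 and 11 against 15 and 15 in the bed nucleus; the closest long-day and short-day readings are 1 unit apart in each nucleus. With 16 added before the log2 step the differences were 0.72 for Cacna2d3 and 0.24 for Cacna1h. The other Cacna1h probe set read 18, 23 and 15 against 15, 18 and 19, and 23, 18 and 19 against 20 and 23, with overlap in both nuclei. Neither difference passed. In the same comparison all 8 striatal markers lay above 0 (median 0.41) and all 6 markers of ependyma and choroid plexus below 0 (median -0.40), with none passing; their part in these values was not tested. Outlying samples were not tested for, since no group has more than 3.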

How the results depend on the processing

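In the 4 comparisons that involve day length, the count of channel probe sets that passed stayed at 0 under all alternatives run. Between the nuclei the count was 2, and 1 to 3 when each array was left out in turn; it was 3 with dim probe sets left out, 0 on the long-day or the short-day arrays alone (fewer arrays), and 1 in long days (against 0.128% of all probe sets) and 1 in short days (against 0.354%) with the spread from all arrays, which was chosen after the data were seen. Cacna2d3 lost its call in 3 of 23 alternatives (long-day arrays alone, adjusted p = 0.581; short-day arrays alone, 1.06, adjusted p = 0.245; long days with the shared spread, adjusted p = 0.631) and Cacnb2 in 7 of 23, with an adjusted p of 0.0134 to 0.702. No named difference changed sign. An offset of 16 before log2 changed no call of a named probe set but shrank dim ones by over 1.5 times, such as Cacna1s in the bed nucleus (-0.24) and Cacnb2 between the nuclei (0.39). Counts over all probe sets moved more: 233 between the nuclei ranged from 0 to 279, 10 in the bed nucleus from 0 to 38, 3 for both nuclei from 1 to 5, and the counts of 0 reached 1 in the preoptic area and 5 for the difference between nuclei. Leaving out a short-day bed nucleus array leaves 1 sample, assumed to vary like the other groups. Sample numbers 1 to 5 occur in both nuclei, and the labels do not say whether a shared number marks the same animal. Deviations of same-numbered samples correlated at -0.03 to 0.07. Being taken from means of 2 or 3 arrays, they cannot settle this, and the main fit did not pair the samples. With the replicate block as a random term or as a fixed term on arrays 1 to 5, 2 channel probe sets passed between the nuclei and 0 in the day length comparisons it could be fitted for. The number of arrays and the rounding of dim probe sets limit the precision.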
